A study of Mus musculus with 12 samples.

Results

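The pentose phosphate pathway was followed through 9 genes, chosen by name, in the livers of WT and Atf7-/- mice conceived by natural mating or by in vitro fertilization (IVF). A probe set, the group of oligonucleotides on the array that gives a gene 1 value, was taken for a gene only where the platform annotation names that gene alone. Of the 9 genes, 8 (G6pd2, H6pd, Pgls, Pgd, Rpia, Rpe, Tkt and Taldo1) had such a probe set, 1 each, which makes 8 of the 34760 probe sets measured. G6pdx, the X-linked gene of glucose-6-phosphate dehydrogenase, was not analysed here, since no probe set carried its name alone. The arrays (Affymetrix Mouse Gene 1.0 ST) read total liver RNA of 12 male mice, 1 mouse per array. Each genotype came from both kinds of conception, which makes 4 groups, named by genotype and conception (such as Atf7-/- natural mating), with 3 mice from different mothers or recipients in a group. All were of C57BL6/JJmsSlc background. The sample records give the age as 4 weeks and the article as 3 weeks. IVF here included superovulation of the egg donors, a day of embryo culture and transfer of embryos to ICR foster mothers, while naturally conceived pups grew in their own C57BL6 mothers, and these parts of the procedure cannot be told apart. The article describes Atf7-/- mice as ATF7-deficient, and they had Atf7-/- parents, so the genotype was not confined to the liver. An effect in the liver and one through other tissues or the parents cannot be told apart either.

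The pathway branches off glycolysis at glucose 6-phosphate. Its oxidative branch (glucose-6-phosphate dehydrogenase, 6-phosphogluconolactonase and 6-phosphogluconate dehydrogenase) makes NADPH and ribulose 5-phosphate. Its non-oxidative branch (the pentose isomerase and epimerase, transketolase and transaldolase) turns pentoses back into sugars of glycolysis, or supplies ribose 5-phosphate for nucleotides. In liver, NADPH feeds fatty acid and cholesterol synthesis and the reduction of glutathione, and the genes of the oxidative branch are known to follow carbohydrate feeding together with lipogenic genes. H6pd encodes a separate enzyme of the endoplasmic reticulum that carries out both the first and the second step there.

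Values are log2 expression values from robust multiarray averaging (RMA) by the authors, so a difference of 1 is a doubling, and levels are compared within a probe set and never between genes. Differences between groups were fitted with limma over all 12 arrays and all probe sets, with Benjamini-Hochberg adjusted p-values. A probe set was called where the adjusted p was 0.05 or less and the log2 fold change was 0.6 or more in either direction. Because whole liver was measured, fewer cells of a type and less RNA per cell cannot be told apart. Array medians lay between 6.22 and 6.34, and arrays of a group correlated at 0.980 to 0.990 across probe sets. Of the probe sets named Atf7, 10433032 read 8.78 ± 0.18 (SD, n = 3) in WT and 5.96 ± 0.14 in Atf7-/- mice from natural mating, and 8.04 ± 0.43 in WT and 5.52 ± 0.17 in Atf7-/- mice from IVF and was low in both groups labelled Atf7-/-. The other, 10433034, read 9.02 in WT and 8.68 in Atf7-/- mice from natural mating, and 8.76 in WT and 8.38 in Atf7-/- mice from IVF, and ATF7 loss was not called on it (-0.34, adjusted p = 0.0758, and -0.39, adjusted p = 0.721). The part of Atf7 that each probe set reads, and whether it was deleted, was not analysed here. IVF in WT mice gave -0.74 on the first (adjusted p = 0.0384) and -0.26 on the second (adjusted p = 0.19, not called). On the first, WT IVF replicate 3 read 7.56 against 8.18 and 8.38. IVF in Atf7-/- mice gave -0.44 on it (adjusted p = 0.171, not called). The article reports that Atf7 mRNA did not differ between WT IVF and control livers and that ATF7 protein was comparable. Besides the Atf7 values, some arrays stood apart in genes described below. Atf7-/- IVF replicate 2 read higher than the other 2 arrays of its group for Pgd, Tkt, several lipogenic genes and all 6 markers of proliferating cells. WT natural mating replicate 3 read higher than the others of its group for Fasn, Sqle and Acacb, genes of lipid synthesis. Atf7-/- natural mating replicate 3 read higher than the others of its group for all 6 markers of proliferating cells.

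Pgd, which encodes 6-phosphogluconate dehydrogenase, the second NADPH-making step of the oxidative branch, was higher in naturally conceived Atf7-/- liver than in each of the other groups, by 3.18-fold over WT natural mating and 3.19-fold over Atf7-/- IVF. Its probe set 10518570 read 8.23, 8.53 and 8.74 in WT and 9.99, 10.23 and 10.30 in Atf7-/- mice from natural mating, and 8.73, 8.88 and 8.69 in WT and 8.22, 9.10 and 8.17 in Atf7-/- mice from IVF. The Atf7-/- natural mating arrays lay above all 9 others, and the other 3 groups overlapped. ATF7 loss in naturally conceived mice gave a log2 fold change of 1.67 (SE 0.224, 95% confidence interval 1.18 to 2.16, adjusted p = 0.000803). IVF in Atf7-/- mice gave -1.67 (SE 0.224, interval -2.17 to -1.18, adjusted p = 0.00103). These comparisons share the Atf7-/- natural mating arrays, so they are not independent of each other. Atf7-/- IVF and WT natural mating liver had the same mean of 8.50, with an interval for their difference of -0.50 to 0.49. Without Atf7-/- IVF replicate 2 (9.10, against 8.22 and 8.17) that difference was -0.31 (SE 0.152, adjusted p = 0.349). IVF in WT mice gave 0.27 (interval -0.23 to 0.76, adjusted p = 0.502), and the difference between the IVF effects in Atf7-/- and WT mice was -1.94 (SE 0.317, interval -2.64 to -1.24, adjusted p = 0.00571). ATF7 loss among IVF mice gave -0.27 (interval -0.76 to 0.22, adjusted p = 0.899), and -0.57 without Atf7-/- IVF replicate 2 (adjusted p = 0.281). Pgd was called in the same 3 comparisons with each of the 12 arrays left out in turn, and without Atf7-/- IVF replicate 2 IVF in Atf7-/- mice gave -1.98 (adjusted p = 0.000376).

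**Figure D1:**
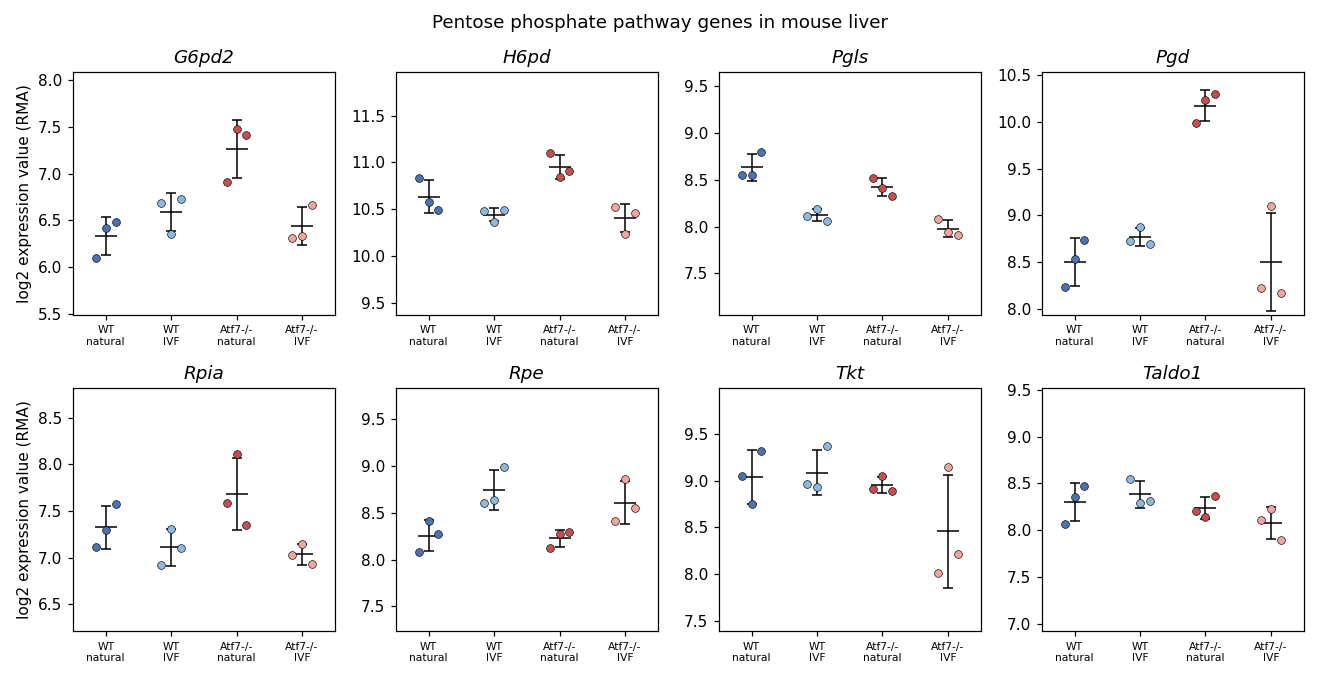
Log2 expression values of the 8 measured pathway genes by group, each panel spanning a range of the same width. Each point is an array, in order of replicate number, and the black marks show means with their SD (n = 3). Pgd stands between 9.99 and 10.30 in Atf7-/- natural mating and at most at 9.10 elsewhere, and Tkt and Pgd show 1 high array in Atf7-/- IVF.

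G6pd2, an intronless copy of G6pdx best known from developing sperm, had a like order of groups on probe set 10521984. This probe set read close to the array medians, with a mean of 6.33 in WT natural mating. It lay on average at percentile 56.3 of the probe sets of an array, the lowest of the members. It read 6.10, 6.42 and 6.48 in WT and 6.91, 7.48 and 7.41 in Atf7-/- mice from natural mating, and 6.69, 6.36 and 6.73 in WT and 6.31, 6.33 and 6.67 in Atf7-/- mice from IVF. The Atf7-/- natural mating arrays were again above all the others, which overlapped among themselves. It rose with ATF7 loss in naturally conceived mice by a log2 fold change of 0.93 (SE 0.176, interval 0.55 to 1.32, adjusted p = 0.0053) and fell with IVF in Atf7-/- mice by 0.83 (SE 0.176, adjusted p = 0.0107). IVF in WT mice gave 0.26 (interval -0.13 to 0.65, adjusted p = 0.398). ATF7 loss among IVF mice gave -0.15 (interval -0.54 to 0.23, adjusted p = 0.929). The IVF effects differed between the genotypes by -1.09 (SE 0.249, adjusted p = 0.0256), a call that ended without Atf7-/- natural mating replicate 2 or 3, Atf7-/- IVF replicate 1, WT natural mating replicate 1, or WT IVF replicate 1 or 3 (adjusted p from 0.0536 to 0.065). RNA of G6pdx may bind probes designed for its copy, and signal of these genes cannot be told apart here. In the RefSeq start-site windows, 34 of 35 bases were identical between a stretch that opens 10 bases before the G6pd2 start and one just after the G6pdx start.

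The stretches before the start sites of Pgd and G6pd2 are shown because these are the members called in 3 comparisons each, both higher in Atf7-/- natural mating. They are the 250 bases before the RefSeq start on build GRCm38.p6, 5′ to 3′ on the strand of the gene. Capitals mark matches on either strand to CCAAT (reverse ATTGG), the core of a common promoter element, which 33.8% of all 32851 such windows hold.
Pgd (chr4:149166706-149166955, minus strand): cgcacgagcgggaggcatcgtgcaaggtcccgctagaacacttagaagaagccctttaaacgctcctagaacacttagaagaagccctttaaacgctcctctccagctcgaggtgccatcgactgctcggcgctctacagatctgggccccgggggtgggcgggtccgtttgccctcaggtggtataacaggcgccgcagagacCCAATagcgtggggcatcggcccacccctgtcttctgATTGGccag
G6pd2 (chr5:61808593-61808842, plus strand): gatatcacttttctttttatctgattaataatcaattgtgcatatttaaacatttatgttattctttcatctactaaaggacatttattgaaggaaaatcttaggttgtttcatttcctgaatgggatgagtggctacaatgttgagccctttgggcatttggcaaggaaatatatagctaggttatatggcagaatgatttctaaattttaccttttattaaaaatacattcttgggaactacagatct
The Pgd stretch had 60.4% G and C, 18 CpG dinucleotides and 2 CCAAT matches, and the G6pd2 stretch had 30.0% G and C, 0 CpG and 0 CCAAT matches. The median window had 52.4% G and C and 6 CpG. Neither held TGACGTCA, the cAMP response element bound by the ATF and CREB family (in 1.55% of windows), nor TGACG, a shorter form of it whose letters it contains (17.8%). Neither held TGACNNNGC, the core of the antioxidant response element (10.2%), TCACNCCAC, a sterol response element (1.05%), or CACGTG, the E-box (6.02%). Of the other members' windows, Rpe and Taldo1 each held 1 TGACG and G6pdx held 1 TGACNNNGC, while H6pd and Taldo1 each held 1 CCAAT. A second RefSeq start of Pgd, inside the gene, had none of these motifs in its window.

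H6pd, the dehydrogenase of the endoplasmic reticulum, was highest in Atf7-/- natural mating as well, with smaller differences. Probe set 10518743 read 10.83, 10.58 and 10.49 in WT and 11.10, 10.85 and 10.91 in Atf7-/- mice from natural mating, and 10.48, 10.36 and 10.49 in WT and 10.52, 10.24 and 10.46 in Atf7-/- mice from IVF. The Atf7-/- natural mating arrays lay above the rest, and the other 3 groups overlapped. IVF in Atf7-/- mice gave -0.55 (SE 0.116, interval -0.80 to -0.29, adjusted p = 0.0104), which passed the p threshold and not the fold threshold (called without Atf7-/- IVF replicate 1, at -0.60, adjusted p = 0.0136). ATF7 loss in naturally conceived mice gave 0.32 (interval 0.07 to 0.57, adjusted p = 0.0972), IVF in WT mice -0.19 (adjusted p = 0.344) and the difference between the IVF effects -0.36 (adjusted p = 0.23). Hsd11b1, whose product reactivates glucocorticoids with the NADPH that H6pd makes, also had its highest mean in Atf7-/- natural mating but differed from H6pd in its IVF values. It had 0.61 (SE 0.118, adjusted p = 0.0123) for IVF in WT mice and 0.68 (SE 0.118, adjusted p = 0.00336) for ATF7 loss in naturally conceived mice, and it read 11.43 ± 0.12 in Atf7-/- IVF against 11.50 ± 0.08 in Atf7-/- natural mating. Its call in WT mice ended without WT natural mating replicate 2 or WT IVF replicate 3 or with only these groups in the fit (adjusted p from 0.032 to 0.0566, log2 fold changes from 0.48 to 0.61), and that for ATF7 loss ended without WT natural mating replicate 2 (0.55). Its IVF effects differed between the genotypes by -0.68 (SE 0.167, adjusted p = 0.0338), a call that ended without 8 of the 12 arrays, each left out alone (adjusted p from 0.0502 to 0.0795, the replicate block included). Slc37a4, the transporter that brings glucose 6-phosphate to H6pd, was called in neither.

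Pgls, which encodes 6-phosphogluconolactonase, the middle step of the oxidative branch, was lower after IVF in both genotypes. Probe set 10572663 read 8.55, 8.55 and 8.80 in WT and 8.52, 8.41 and 8.33 in Atf7-/- mice from natural mating, and 8.11, 8.19 and 8.06 in WT and 8.08, 7.94 and 7.91 in Atf7-/- mice from IVF. All 6 IVF arrays lay below all 6 natural mating arrays. IVF gave -0.51 (SE 0.0971, interval -0.73 to -0.30, adjusted p = 0.0113) in WT and -0.44 (SE 0.0971, interval -0.65 to -0.23, adjusted p = 0.0128) in Atf7-/- mice, both under the fold threshold, and the effects differed by 0.07 (interval -0.23 to 0.38, adjusted p = 0.813). In Atf7-/- mice the adjusted p was between 0.00692 and 0.0567 with 1 array left out, and in WT mice it was 0.0503 with only these groups in the fit. Atf7-/- IVF liver against WT natural mating liver, a comparison added after the data were seen in which 3.14% of all probe sets were called, gave -0.65 (SE 0.0971, adjusted p = 0.00513), which was called. That call ended without WT natural mating replicate 3 (-0.57) and with only these groups in the fit (adjusted p = 0.0676). ATF7 loss in naturally conceived mice gave -0.21 (adjusted p = 0.188).

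The non-oxidative branch opens with Rpia, the isomerase that makes ribose 5-phosphate, and Rpe, the epimerase that makes xylulose 5-phosphate. Rpia fell with IVF in Atf7-/- mice, while the values of Rpe were higher after IVF in both genotypes without passing the test. Rpia (probe set 10545255) read 7.11, 7.30 and 7.57 in WT and 7.59, 8.11 and 7.35 in Atf7-/- mice from natural mating, and 6.92, 7.31 and 7.10 in WT and 7.03, 7.15 and 6.93 in Atf7-/- mice from IVF. The Atf7-/- natural mating arrays lay above both IVF groups and overlapped WT natural mating, and neighbours in the order of the 4 means overlapped. For IVF in Atf7-/- mice the log2 fold change was -0.65 (SE 0.187, interval -1.06 to -0.24, adjusted p = 0.0433). That call ended with only these groups in the fit (adjusted p = 0.0803) and without Atf7-/- natural mating replicate 1 or 2, any of the Atf7-/- IVF arrays, WT natural mating replicate 2, or WT IVF replicate 1 or 3 (adjusted p from 0.0519 to 0.137). The other comparisons of Rpia gave 0.35 for ATF7 loss in naturally conceived mice (adjusted p = 0.264), -0.22 for IVF in WT mice (adjusted p = 0.508) and -0.43 for the difference between the IVF effects (adjusted p = 0.384). Rpe (probe set 10347106) read 8.08, 8.41 and 8.27 in WT and 8.12, 8.27 and 8.29 in Atf7-/- mice from natural mating, and 8.61, 8.64 and 8.99 in WT and 8.41, 8.86 and 8.55 in Atf7-/- mice from IVF. The IVF arrays were above the natural mating arrays within each genotype, by a log2 fold change of 0.50 (interval 0.18 to 0.81, adjusted p = 0.0565) in WT and 0.38 (interval 0.07 to 0.70, adjusted p = 0.111) in Atf7-/- mice, neither of which was called. ATF7 loss in naturally conceived mice gave -0.03 for Rpe (adjusted p = 0.937).

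Tkt, transketolase, and Taldo1, transaldolase, which pass carbon units between the sugars, were called in none of the comparisons. Tkt (probe set 10413542) read 9.05, 8.75 and 9.32 in WT and 8.91, 9.05 and 8.89 in Atf7-/- mice from natural mating, and 8.96, 8.93 and 9.37 in WT and 8.01, 9.15 and 8.21 in Atf7-/- mice from IVF. Replicate 2 of Atf7-/- IVF was within the range of the other groups, and the other 2 arrays of that group were below all 10 remaining arrays. With all arrays IVF in Atf7-/- mice gave -0.49 (SE 0.261, interval -1.07 to 0.08, adjusted p = 0.27). Without Atf7-/- IVF replicate 2 it gave -0.84 (SE 0.181, adjusted p = 0.018), which was called. Tkt gave 0.04 (interval -0.53 to 0.62) for IVF in WT mice, -0.09 (interval -0.67 to 0.48) for ATF7 loss in naturally conceived mice, -0.63 (adjusted p = 0.797) for ATF7 loss among IVF mice and -0.54 (adjusted p = 0.439) for the difference between the IVF effects. The last 2 values were -0.98 (adjusted p = 0.138) and -0.89 (adjusted p = 0.0539) without Atf7-/- IVF replicate 2. Taldo1 (probe set 10558903) read 8.07, 8.36 and 8.47 in WT and 8.20, 8.14 and 8.37 in Atf7-/- mice from natural mating, and 8.55, 8.29 and 8.31 in WT and 8.11, 8.23 and 7.89 in Atf7-/- mice from IVF. Its groups overlapped throughout except the IVF groups, where ATF7 loss gave -0.31 (interval -0.60 to -0.02, adjusted p = 0.803). It gave 0.09 for IVF in WT, -0.16 for IVF in Atf7-/- mice and -0.06 for ATF7 loss in naturally conceived mice, with adjusted p from 0.525 to 0.828.

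Counted over the pathway, ATF7 loss in naturally conceived mice called 2 of 8 members, both higher and both in the oxidative branch, where 7.5% of all probe sets were called and 3.83% were called higher. The median log2 fold change was 0.63 over the 4 oxidative members, -0.04 over the 4 non-oxidative ones (0.04 without WT natural mating replicate 3) and -0.019 over all probe sets. The 0.63 lies between G6pd2 (0.93) and H6pd (0.32), while Pgd (1.67) and Pgls (-0.21) went opposite ways. G6pdx was not analysed, G6pd2 may carry its signal, and H6pd is an enzyme of the endoplasmic reticulum. The oxidative medians are therefore no measure of the branch as a whole. IVF in Atf7-/- mice called 3 of 8, all lower, where 6.78% of all probe sets were called and 3.51% were called lower. The median was -0.69 over the oxidative and -0.33 over the non-oxidative members, beside 0.0057 over all probe sets. The -0.69 again lies between G6pd2 (-0.83) and H6pd (-0.55), and here all 4 oxidative values were negative. On the p threshold alone 5 of 8 passed there, all 4 oxidative members among them, against 12.9% of all probe sets. IVF in WT mice called 0 of 8 by limma, with 2 at an unadjusted p under 0.05 and 1 (Pgls) at the adjusted p alone, where 4.52% of all probe sets were called and 8.62% passed the adjusted p alone. ATF7 loss among IVF mice called 0 of 8 by limma, with 2 at an unadjusted p under 0.05. All 8 values there were negative, from -0.63 to -0.04 (from -0.98 to 0.04 without Atf7-/- IVF replicate 2), and 0.00575% of all probe sets were called. The difference between the IVF effects was called for 2 of 8 members, both lower, against 6.18% of all probe sets in either direction and 3.46% lower.

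**Figure D2:**
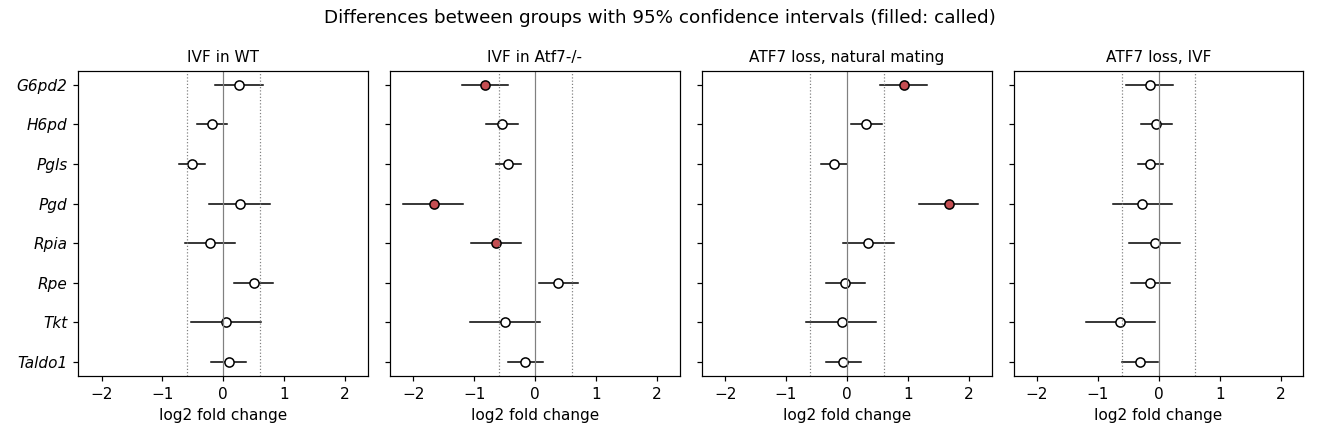
Log2 fold changes of the 8 measured pathway genes in 4 comparisons, with 95% confidence intervals from limma. Filled points were called and dotted lines mark the fold threshold of 0.6. Pgd lies at 1.67 for ATF7 loss in naturally conceived mice and at -1.67 for IVF in Atf7-/- mice, which share a group of arrays.

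Enzymes around the pathway were listed beside it, with the brightest probe set taken for each gene. For all lists from here on, 4.52% of all probe sets were called with IVF in WT mice and 6.78% with IVF in Atf7-/- mice. The shares were 7.5% with ATF7 loss in naturally conceived mice and 6.18% for the difference between the IVF effects. A count near its share is no result about a list. These shares are from the fit with all 12 arrays. None is given for fits with an array left out, so counts from those fits are no result about a list either. Of 13 measured neighbours, 2 rose with IVF in WT mice. They were Prps1, which turns ribose 5-phosphate into the precursor of nucleotides, at 0.79 (SE 0.104, adjusted p = 0.00238), and Pgm2, a phosphopentomutase, at 0.64 (SE 0.173, adjusted p = 0.0432). With ATF7 loss in naturally conceived mice 1 of 13 rose, Pgm2 at 0.82 (SE 0.173, adjusted p = 0.00976). With IVF in Atf7-/- mice 2 of 13 fell, which were the xylulose kinase gene Xylb (-0.81, SE 0.132, adjusted p = 0.00275) and Shpk, the kinase of sedoheptulose (-0.64, SE 0.101, adjusted p = 0.00233). The IVF effect on Prps1 differed between the genotypes by -0.84 (SE 0.147, adjusted p = 0.00757). The call of Pgm2 for IVF in WT mice ended without 10 of the 12 arrays, each left out alone, and with only these groups in the fit (adjusted p from 0.0507 to 0.138), and that of Shpk ended without Atf7-/- natural mating replicate 2 or Atf7-/- IVF replicate 2 (-0.59). The median of the list was 0.01 for IVF in WT mice, 0.25 for ATF7 loss in naturally conceived mice and -0.05 for IVF in Atf7-/- mice. Without WT natural mating replicate 3, 1 rose with IVF in WT mice and 2 with ATF7 loss, and without Atf7-/- IVF replicate 2, 1 fell and 1 rose with IVF in Atf7-/- mice.

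Of 11 measured genes of glycolysis and gluconeogenesis, 1 fell with IVF in WT mice, which was Aldoa, an aldolase, by 0.88 (SE 0.106, adjusted p = 0.0017). With IVF in Atf7-/- mice 2 of 11 fell, Aldoa (-0.92, SE 0.106, adjusted p = 0.000521) and Aldoc, another aldolase (-1.25, SE 0.12, adjusted p = 0.000226). With ATF7 loss in naturally conceived mice, where 7.5% of all probe sets were called, 1 of 11 rose. It was Fbp1, the fructose bisphosphatase of gluconeogenesis, by 0.69 (SE 0.085, adjusted p = 0.000501). Fbp1 and Aldoc also had different IVF effects in the genotypes, by -0.70 for Fbp1 (SE 0.12, adjusted p = 0.0071) and by -1.11 for Aldoc (SE 0.17, adjusted p = 0.00425). Aldoc read 7.50 ± 0.08 in WT and 8.09 ± 0.20 in Atf7-/- mice from natural mating, and 7.36 ± 0.17 in WT and 6.83 ± 0.07 in Atf7-/- mice from IVF. Its mean was highest in Atf7-/- natural mating, as for Pgd. The list had a median of -0.13 for IVF in WT mice, -0.01 for IVF in Atf7-/- mice and 0.00 for ATF7 loss in naturally conceived mice. Without WT natural mating replicate 3, 2 of 11 fell with IVF in WT mice and 2 rose with ATF7 loss in naturally conceived mice.

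Of 10 other NADPH-making enzymes, 1 fell with IVF in Atf7-/- mice and 0 were called with ATF7 loss in naturally conceived mice (1 fell without WT natural mating replicate 3). Me1, the cytosolic malic enzyme, fell by 2.43 (SE 0.555, adjusted p = 0.0153). It read 10.31, 9.93 and 10.90 in WT and 11.29, 11.64 and 11.53 in Atf7-/- mice from natural mating, and 10.29, 9.36 and 10.42 in WT and 8.13, 10.64 and 8.41 in Atf7-/- mice from IVF. As for Pgd, the Atf7-/- natural mating arrays were above all the others and replicate 2 of Atf7-/- IVF was above the other 2. Its call ended without Atf7-/- natural mating replicate 2 or Atf7-/- IVF replicate 3 or with only these groups in the fit (adjusted p from 0.0501 to 0.0683), and without Atf7-/- IVF replicate 2 it gave -3.22 (adjusted p = 0.000778). For ATF7 loss in naturally conceived mice Me1 gave 1.11 (SE 0.555, adjusted p = 0.238), and it was called there without Atf7-/- IVF replicate 2 (adjusted p = 0.0353) and with only these groups in the fit (adjusted p = 0.0367). The values of the other 9 ranged from -0.38 to 0.27 with IVF in Atf7-/- mice and from -0.46 to 0.28 with ATF7 loss in naturally conceived mice.

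Of 8 measured genes of lipid synthesis, a main use of hepatic NADPH, 5 fell with IVF in Atf7-/- mice and all 8 values were negative, with a median of -1.81. Without Atf7-/- IVF replicate 2 all 8 fell, with a median of -2.46. The log2 fold change was -2.72 for the acetyl-CoA carboxylase gene Acacb (SE 0.532, adjusted p = 0.00709) and -2.33 for Fasn, which encodes fatty acid synthase (SE 0.663, adjusted p = 0.0415). In cholesterol synthesis it was -2.49 for squalene epoxidase, Sqle (SE 0.654, adjusted p = 0.0289), and -1.22 for Dhcr7, the last step (SE 0.256, adjusted p = 0.0102). Fasn read 10.33, 10.50 and 12.38 in WT and 12.02, 12.80 and 12.39 in Atf7-/- mice from natural mating, and 11.00, 11.47 and 11.19 in WT and 9.36, 11.74 and 9.13 in Atf7-/- mice from IVF. Replicate 2 of Atf7-/- IVF was again the high array of its group, and replicate 3 of WT natural mating was high in its own. Without Atf7-/- IVF replicate 2 the values were -3.28 for Acacb, -3.28 for Sqle, -3.16 for Fasn and -1.40 for Dhcr7, with adjusted p from 0.00345 to 0.0118. The call of Fasn ended without 8 of the 12 arrays, each left out alone, and with only these groups in the fit (adjusted p from 0.0562 to 0.152). That of Sqle ended without Atf7-/- natural mating replicate 2 or 3 or Atf7-/- IVF replicate 1 or 3 and with only these groups in the fit (adjusted p from 0.054 to 0.113). ATF7 loss in naturally conceived mice called 1 of 8, Dhcr7 at 0.85 (SE 0.256, adjusted p = 0.0495), with all 8 values positive and a median of 0.96. Without WT natural mating replicate 3 it called 3 of 8 with a median of 1.46, and without Atf7-/- IVF replicate 2 it called 2 of 8. The call of Dhcr7 ended without 9 of the 12 arrays, each left out alone, and with only these groups in the fit (adjusted p from 0.0517 to 0.167). IVF in WT mice called 0 of these 8 and had a median of 0.15, with values from -0.34 to 1.34. That median rests on WT natural mating replicate 3, without which it was 0.59 with all 8 values positive, from 0.16 to 1.98, and 0 called. The IVF effects differed between the genotypes for 1 of 8, Sqle at -3.83 (SE 0.924, adjusted p = 0.0317), a call that ended without 9 of the 12 arrays, each left out alone (adjusted p from 0.0514 to 0.0778). It was called for 4 of 8 without WT natural mating replicate 3 and for 7 of 8 without Atf7-/- IVF replicate 2. The shares of all probe sets called in those fits are not given here.

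**Figure D3:**
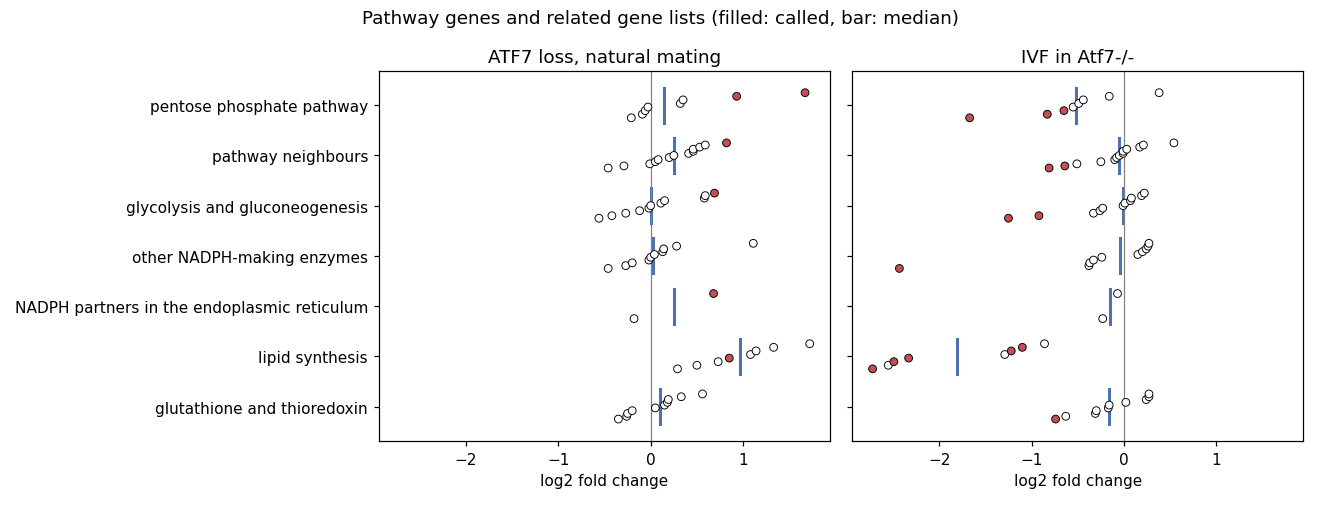
Log2 fold changes of the pathway genes and of 6 lists of related genes for ATF7 loss in naturally conceived mice (left) and IVF in Atf7-/- mice (right). Each point is a gene, filled where called, and the blue bar is the median of its list. The lipid synthesis list has a median of 0.96 on the left and -1.81 on the right, and the pathway one of 0.15 and -0.52.

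Of 10 genes of glutathione and thioredoxin metabolism, among them targets of NRF2, the transcription factor of the oxidative stress response, 1 fell with IVF in WT and in Atf7-/- mice, in both cases the heme oxygenase gene Hmox1, with -0.77 (SE 0.139, adjusted p = 0.00935) in WT and -0.74 (SE 0.139, adjusted p = 0.0057) in Atf7-/- mice. With ATF7 loss in naturally conceived mice 0 of 10 were called, and their median was 0.10. Without WT natural mating replicate 3 that median was -0.06, and 2 of 10 fell with IVF in each genotype. Among genes of transcription regulators, Nfe2l2, which encodes NRF2, fell with IVF in Atf7-/- mice (-0.68, SE 0.114, adjusted p = 0.0033), and so did Mlxipl, which encodes the carbohydrate sensor ChREBP (-0.75, SE 0.162, adjusted p = 0.0117). Srebf1, the gene of the lipogenic factor SREBP-1, gave -0.04 (SE 0.329, adjusted p = 0.967) and Keap1, the inhibitor of NRF2, 0.23 (SE 0.108, adjusted p = 0.203). The call of Nfe2l2 ended without Atf7-/- IVF replicate 1 (-0.57), and that of Mlxipl ended without Atf7-/- natural mating replicate 1 or Atf7-/- IVF replicate 3. With ATF7 loss in naturally conceived mice 0 of these 4 were called, with 0.36 for Nfe2l2, 0.23 for Mlxipl, -0.60 for Srebf1 and -0.49 for Keap1. With IVF in WT mice 0 of 4 were called, and all values were negative, from -0.59 to -0.15. The difference between the IVF effects was called for 0 of 4. Nfe2l2 had IVF means of 9.84 in WT and 9.85 in Atf7-/- mice, and Mlxipl of 10.07 and 10.03.

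Markers of cell types moved with some of these groups, and their part in the results was not tested. Of 6 measured hepatocyte markers 0 were called with ATF7 loss in naturally conceived mice or with IVF in Atf7-/- mice, and their summed level (log2) was 15.91 to 15.95 in WT and 15.83 to 15.88 in Atf7-/- mice from natural mating, and 15.90 to 15.98 in WT and 15.90 to 16.02 in Atf7-/- mice from IVF. Of 7 Kupffer cell and macrophage markers, 3 fell and 1 rose with ATF7 loss in naturally conceived mice. With IVF 1 fell in WT mice, and 0 were called in Atf7-/- mice. Without WT natural mating replicate 3, 2 fell and 0 rose with ATF7 loss. Their summed level was 12.40 to 12.95 in WT and 12.28 to 12.51 in Atf7-/- mice from natural mating, and 12.41 to 12.50 in WT and 12.33 to 12.59 in Atf7-/- mice from IVF. Of 4 erythroid markers 0 were called (1 rose with IVF in WT mice without WT natural mating replicate 3), with summed levels of 8.92 to 9.82 in WT and 8.98 to 9.43 in Atf7-/- mice from natural mating, and 9.39 to 9.97 in WT and 9.33 to 9.46 in Atf7-/- mice from IVF. Of 6 neutrophil markers 1 fell with ATF7 loss in naturally conceived mice and 2 rose with IVF in Atf7-/- mice (0 fell with ATF7 loss without WT natural mating replicate 3), with summed levels of 8.27 to 8.79 in WT and 8.09 to 8.17 in Atf7-/- mice from natural mating, and 8.44 to 8.59 in WT and 8.37 to 8.77 in Atf7-/- mice from IVF. Of 5 lymphocyte markers 0 were called with ATF7 loss in naturally conceived mice, and 2 rose with IVF in Atf7-/- mice (0 without Atf7-/- IVF replicate 2). With IVF in WT mice 1 rose (2 without WT natural mating replicate 3). Their summed levels were 8.32 to 8.63 in WT and 8.41 to 8.60 in Atf7-/- mice from natural mating, and 8.70 to 8.71 in WT and 8.69 to 8.88 in Atf7-/- mice from IVF. Of 6 markers of proliferating cells 0 were called with ATF7 loss in naturally conceived mice or with IVF in Atf7-/- mice, and 1 rose with IVF in WT mice. Their summed level was 9.37 to 10.00 in WT and 9.98 to 11.24 in Atf7-/- mice from natural mating, and 11.01 to 11.18 in WT and 9.62 to 11.32 in Atf7-/- mice from IVF. The top of that last range was Atf7-/- IVF replicate 2, the array that was high in Pgd and Tkt, at 11.32 against 9.62 and 9.72. Atf7-/- natural mating replicate 3 was likewise high in all 6, at 11.24 against 10.29 and 9.98. Without Atf7-/- IVF replicate 2 the median of these markers was -0.80 in place of -0.20 for IVF in Atf7-/- mice, with 0 called, while 2 rose with ATF7 loss in naturally conceived mice and 4 with IVF in WT mice, and without WT natural mating replicate 3, 0 rose with IVF in WT mice.

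The members varied together to different degrees over the 12 arrays, which is a description, since the arrays share 4 groups. Pearson's r with Pgd was 0.84 for G6pd2, 0.72 for Rpia, 0.61 for H6pd, 0.33 for Tkt, 0.23 for Pgls, 0.20 for Taldo1 and -0.27 for Rpe. Rpe ran against H6pd (-0.77) and Pgls (-0.74). Likeness was sought over 19129 probe sets with 1 gene symbol. Members, genes with Gm or Rik names, and olfactory and vomeronasal receptor genes were left out. Among these the patterns nearest to that of Pgd were those of Fancf (0.982), Nacc1 (0.970) and Mtap (0.967). Those nearest to G6pd2 were Slc23a1 (0.955), Pstpip2 (0.928) and Wnk1 (0.917), and those nearest to Rpia were Nop2 (0.909), Il1f9 (0.905) and Dennd1a (0.903). Fancf had means of 7.91 in WT and 8.46 in Atf7-/- mice from natural mating, and 7.96 in WT and 7.84 in Atf7-/- mice from IVF, the same high group as Pgd over a narrower range.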

How the data were processed

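Total RNA from the livers of 12 male mice was read on Affymetrix Mouse Gene 1.0 ST arrays. The authors normalized the scans by RMA with affy, an R package, and the deposited log2 values were used unchanged. Their versions and filters are not stated in the sources used. RMA equalises the distributions of all arrays, so values are relative within the experiment. Groups and replicate numbers came from the sample titles. Probe sets were named from the platform annotation of the value table (21640 with 1 symbol, 1321 with several, 11799 with none), and all 8 member symbols matched the RefSeq table of GRCm38.p6 by Entrez identifier. The linear model of group means (limma 3.58.1, R 4.3.3) covered 34760 probe sets and 12 arrays, with 8 residual degrees of freedom, after the script was tested on simulated data. The number of arrays limits the precision. The thresholds are those of the article. Confidence intervals (95%) use the moderated t distribution of limma and are not adjusted. The members and lists were chosen with earlier results of these data known. The text names all members, the Atf7 check, up to 4 called genes per list and comparison, 4 regulators and the 3 genes most like G6pd2, Pgd and Rpia, the members called in the comparisons of the design (Pgls was called only in the added one). Slc37a4 and the numbers of cell type markers were given besides. Start-site windows came from RefSeq. Figures were drawn with matplotlib 3.10.9 in Python 3.11.15. Other settings tried were the groups of a comparison fitted alone, a block for the replicate number, a variance trend over intensity with robust estimation, median centring, a filter on dim probe sets, no fold threshold and each array left out. Counts and medians of lists without WT natural mating replicate 3 or Atf7-/- IVF replicate 2 were added after seeing the data. They were not made without Atf7-/- natural mating replicate 3, which also stood apart.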

Additional observations from a re-analysis of the deposited data

Results flagged for a closer look

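The effect of IVF differed between the genotypes for 2 members, by a test of the difference itself in limma. The difference (IVF in Atf7-/- minus IVF in WT) was -1.94 on the log2 scale for Pgd (SE 0.317, adjusted p = 0.00571) and -1.09 for G6pd2 (SE 0.249, adjusted p = 0.0256). For Pgd the values with each array left out ran from -2.24 to -1.77 (adjusted p from 0.000593 to 0.0177), and for G6pd2 from -1.26 to -0.97 (adjusted p from 0.0138 to 0.065). In both genes the Atf7-/- natural mating arrays, which enter this difference, lay above all the others.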

How the results depend on the processing

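The counts of called members were the same, or within 1.5 times, in every alternative but these. With no fold threshold 1 member instead of 0 was called for IVF in WT mice and 5 instead of 3 for IVF in Atf7-/- mice. With each array left out in turn the count for the difference between the IVF effects was 1 to 2. The count for IVF in Atf7-/- mice stayed within 1.5 times, at 2 to 3 with an array left out and 2 with only the groups compared. Of the 334 other comparisons of a single gene with an alternative setting, 321 kept direction and call, 9 lost the call, 1 gained it and 3 changed sign, and of 828 with an array left out 738 kept both, 73 lost the call, 3 gained it and 14 changed sign. Every change of sign was of an uncalled value, and the cause was not tested. Median centring gave 0.02 for Rpe under ATF7 loss in naturally conceived mice, -0.01 for Pgls in the difference between the IVF effects and 0.03 for Pgd between Atf7-/- IVF and WT natural mating. With an array left out, Tkt ran from -0.10 to 0.18 and Taldo1 from -0.03 to 0.17 for IVF in WT mice. For ATF7 loss in naturally conceived mice Rpe ran from -0.12 to 0.05, Tkt from -0.24 to 0.05 and Taldo1 from -0.18 to 0.02. Pgls ran from -0.01 to 0.12 in the difference between the IVF effects, Pgd from -0.31 to 0.16 between Atf7-/- IVF and WT natural mating, and Srebf1 from -0.20 to 0.20 for IVF in Atf7-/- mice. The comparison of Atf7-/- IVF with WT natural mating was chosen after seeing the data. The labels do not say that a replicate number pairs mice. The article used paired t-tests for RT-PCR and body weight, without saying which mice were paired. Deviations of same-numbered arrays correlated at -0.124 to 0.016 between conceptions, where 2 of 6 (WT) and 0 of 6 (Atf7-/-) arrays were closest to their own number. Between genotypes they correlated at 0.0321 to 0.239, with 4 of 6 (natural mating) and 5 of 6 (IVF), a hint from the data, and not every pair was over 0.1, so the block was not used. With the replicate block the counts were 0 for IVF in WT, 3 for IVF in Atf7-/-, 2 for ATF7 loss in naturally conceived mice, 0 among IVF mice and 2 for the difference. The call of Hsd11b1 in that difference ended under it.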
